A study of Mus musculus with 8 samples.

Results

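Common myeloid progenitors (CMPs) are bone marrow cells that can still give rise to granulocytes, monocytes, erythrocytes and megakaryocytes, and in the usual scheme of blood formation they lie between the stem cell and the progenitors restricted to granulocytes and monocytes or to megakaryocytes and erythrocytes. The RNA of CMPs sorted from young adult mice was measured on 4 arrays, and these 4 arrays, of the 8 in the study, are described here on their own, with no comparison to old mice. The 4 arrays were taken by their sample names and are called young replicates 3, 4, 5 and 6. All 4 samples came from untreated wildtype C57BL/6J mice, whose age is 2 to 3 months by the sample labels and 3 to 4 months by the series description. The cells were sorted as negative for lineage antigens, positive for c-Kit, negative for Sca-1, positive for CD34 and low for Fcγ receptors. Total RNA was amplified, labelled with Cy3 and hybridized with this dye alone to Agilent mouse arrays. The methods of the study give 3 mice per age, whereas 4 young arrays are present, and which array belongs to which mouse is not given in the sources used here. The SD over the arrays may therefore hold technical as well as animal differences. A gate can hold several cell populations, and fewer cells of a type and less RNA per cell cannot be told apart in these bulk samples.

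A level is given here as log2 of the processed spot signal minus the log2 of the array's 75th percentile, so that 0 is a signal as bright as the 75th percentile of all non-control spots and 1 unit is a doubling of the signal on the scale of that probe. The 75th percentile was an intensity of 416, 565, 352 and 513 on replicates 3, 4, 5 and 6. No spot was saturated. Between 56.2% and 63.7% of the spots of an array were well above background, with the lowest share on replicate 5. Pearson's r over the probes detected on all 4 arrays ran from 0.972 between replicates 3 and 5 to 0.989 between replicates 5 and 6, across probes, which are not independent. Replicates 3 and 4 were on slide 1 and replicates 5 and 6 on slide 2. Of 34797 gene names on the array, 20954 (60.2%) had a probe well above background on all 4 arrays, and these are called detected. A further 8937 (25.7%) were well above background on no array, and 2080, 1200 and 1626 on 1, 2 and 3 arrays. Of the 20079 names of RefSeq protein-coding genes, 13333 (66.4%) were detected and 4419 (22.0%) were well above background on no array. The median level of the detected gene names was 0.21, and the range was -4.53 to 9.82. The SD over the 4 arrays had a median of 0.30 over the detected gene names, with 0.38 up to the 25th percentile of the levels and 0.23 above the 75th.

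A gene was represented by its brightest detected probe, and its place among the 20954 detected gene names is given as a percentile. The brightness of a probe depends on its sequence and its place in the transcript as well as on the RNA, so the order of the genes is an order of probe signals. Among 3746 pairs of detected probes on a shared RefSeq transcript, the median absolute difference was 1.78 on the log2 scale, and the probe nearer the 3′ end was the brighter in 64.1% of the pairs. In a further 569 pairs with a single probe detected and the other well above background on no array, the detected probe was the one nearer the 3′ end in 261. The amplification starts at the poly(A) tail, and 13.4% of the brightest probes held the polyadenylation signal AATAAA, against 10.1% of all probes. The sequences of the probes for Mpo and Cd34 are shown because these 2 genes mark the gate and the granule programme, and each has a probe with the signal and a probe without it. The 30 bases printed for each probe are given in the sense of the transcript with AATAAA in capitals.
Mpo, 3′ probe: tatttgtacctgaggttcacactAATAAAa
Mpo, upstream probe: gtggtggatgagatccgggagcgactgttt
Cd34, 3′ probe: tattctcttctgAATAAAcgtgatgagtga
Cd34, upstream probe: ttcccgaaagactcttattgcattggtcac
On mouse build mm9 these lie on the plus strand at chr11:87617870-87617899 and chr11:87615151-87615180 for Mpo and at chr1:196787414-196787443 and chr1:196785310-196785339 for Cd34. The 3′ probe of Mpo was at 9.18 and the upstream probe at 7.47. The 3′ probe of Cd34 was at 6.75 and the upstream probe at 0.50, which would place the gene near the middle of all detected gene names. Of the 82 genes named or listed here with at least 2 detected probes, 60 had their brightest and dimmest detected probe more than 1 apart and 39 more than 3 apart.

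**Figure D1:**
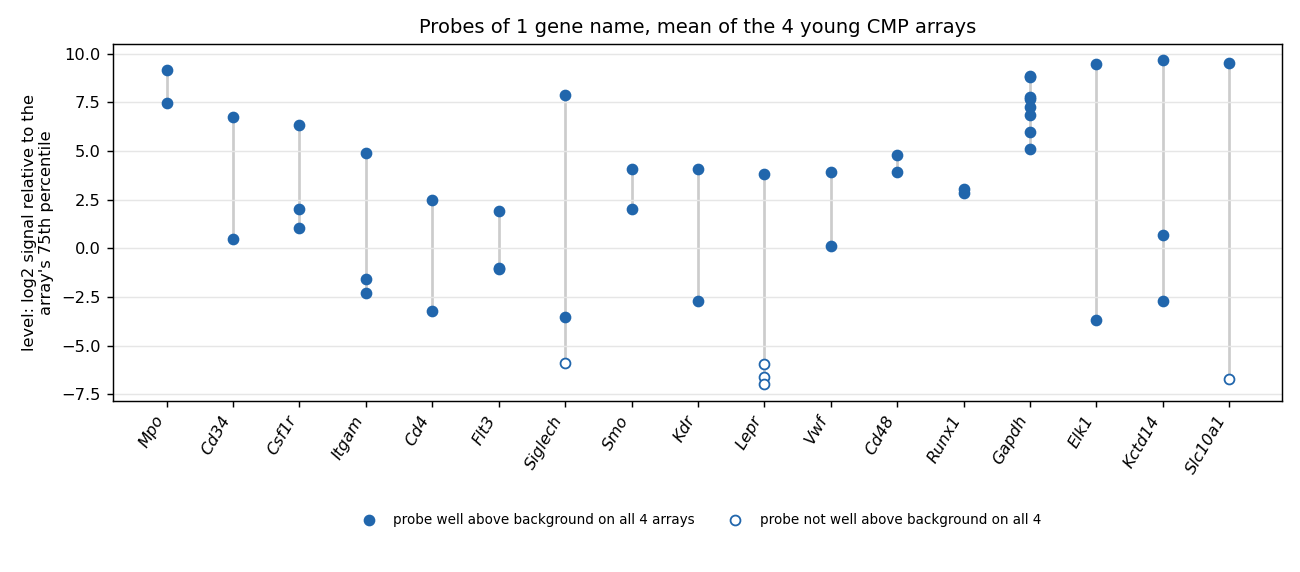
Mean level over the 4 young arrays (y axis, log2 units above the 75th percentile of the array) of every probe of 17 gene names (x axis), with filled points for probes well above background on all 4 arrays and open points for the others. The 8 probes of Gapdh span 5.11 to 8.85, whereas the probes of Siglech span -5.88 to 7.87.

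Cd34 and Kit, the genes of the antigens that the cells were sorted as positive for, were detected on all 4 arrays. Cd34, a sialomucin of progenitors and endothelium, was at 6.76, 6.49, 6.88 and 6.88 on replicates 3 to 6, a mean of 6.75 ± 0.18 (SD, n = 4) at percentile 96.0. Kit, the receptor for stem cell factor, was at 2.96, 2.50, 2.66 and 2.68 (2.70 ± 0.19, SD, n = 4), at percentile 75.1. The 4 arrays lay close together for these 2 genes, with replicate 4 the lowest in each. Fcgr2b and Fcgr3, the Fcγ receptors that the sort kept low, were detected at 2.77 ± 0.22 and 1.83 ± 0.26 (SD, n = 4), percentiles 75.8 and 66.8. Ly6a, which encodes Sca-1, was detected at -0.12 ± 0.18 (SD, n = 4), percentile 46.7, although the cells were sorted as negative for the protein. Of all 13 sort and depletion markers on the array, 9 were detected (69.2%, against 60.2% of all gene names and 66.4% of protein-coding names). These markers include antigens that the sort selected against.

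The RNAs of the antigens used for depletion were in part detected. Ly6g, a part of the Gr-1 epitope, was well above background on no array and Cd8a on 2, whereas Ptprc, Itgam and Cd4 were detected on all 4. Il7r, of lymphoid progenitors, was well above background on 1 array. Ptprc, whose B220 form was a depletion antigen, was at -0.16 ± 0.22 (SD, n = 4). Itgam, which encodes CD11b, was detected at 5.14, 4.55, 5.01 and 4.89 on replicates 3 to 6, percentile 90.5, but this value rests on its probe nearest the 3′ end, and the other 2 probes were at -1.57 and -2.30. Cd4 was likewise detected by a 3′ probe at 2.51 ± 0.39 (SD, n = 4), with its upstream probe at -3.23. Flt3, whose protein was stained in sorts of this study, was at 2.34, 1.10, 2.13 and 2.17, lowest on replicate 4.

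Many of the brightest probes belonged to histone H2A genes, ribosomal RNA and ribosomal protein genes. Hist1h2ah, a replication-dependent histone H2A gene, had the brightest probe of all at 9.82 ± 0.27 (SD, n = 4), followed by the ribosomal RNA Rn18s at 9.78. Of the 20 brightest gene names, 4 were histone H2A genes (Hist1h2ah, H2afj, Hist1h2af and Hist1h2ag) and 6 encoded ribosomal proteins, among them Rps14, Rpl35, Fau, Rplp2 and Rplp0. The histone genes are close copies of each other, so their probes may share RNA. Of 82 ribosomal protein names on the array, 79 were detected (96.3%, against 66.4% of protein-coding names). Of these, 40 were among the 209 gene names of the brightest 1%. All 9 gene names of the form Mcm and a number, which include the subunits of the replicative helicase, were detected (against 66.4% of protein-coding names). Their median percentile was 90.6, from Mcm6 at percentile 96.4 down to Mcm9 and Mcm8 at 42.0 and 35.8. Of 39 proteasome subunits 37 were detected (94.9%, against 66.4% of protein-coding names), at a median percentile of 91.3. Some of the 20 brightest rest on a lone bright probe. Kctd14 was at 9.67 by that probe and at 0.67 and -2.68 by the other two, Elk1, an ETS factor, at 9.48 and -3.66, and Slc10a1, a bile acid transporter of the liver, at 9.51 with its other probe well above background on no array. Exosc2, Glrx2 and Ttc38 were further names of this kind or with a lone probe, and Gm10063 and the transcripts ENSMUST00000081342 and ENSMUST00000102968 complete the 20. The 12 reference genes were all detected (against 66.4% of protein-coding names). They ran from Actb at 9.27 ± 0.19 and Ppia at 9.25 ± 0.31 (SD, n = 4) down to Tbp at 1.32 and Polr2a at 1.16. Among those between these lay Gapdh at 8.85, Eef1a1 at 8.56, B2m at 6.55, Hprt at 5.0, Gusb at 4.59 and Ywhaz at 1.83. The brightest Gapdh probe is placed by the array design on chromosome 7, whereas RefSeq has the gene on chromosome 6, and the next probe was at 8.79.

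The primary granule genes of the neutrophil lineage formed the brightest programme among the blood cell lists. All 12 were detected (100%, against 66.4% of protein-coding names). Their median percentile was 91.9, where the median over all detected gene names is 50 by construction. Primary granules are made at the promyelocyte stage and hold myeloperoxidase and serine proteases. Myeloperoxidase, Mpo, was at 9.24, 8.89, 9.23 and 9.35 on replicates 3 to 6 (9.18 ± 0.20, SD, n = 4), rank 68 of all detected gene names. Cathepsin G, Ctsg, was at 7.77, 7.74, 8.26 and 8.20 (8.00 ± 0.27), and neutrophil elastase, Elane, at 5.17, 5.22, 5.87 and 5.61 (5.47 ± 0.33). Proteinase 3, Prtn3, was at 5.03, 4.98, 5.90 and 5.64 (5.39 ± 0.46). In these 3 protease genes the arrays of slide 1 lay below those of slide 2 without overlap, as in 31.7% of all detected gene names, and in 2 further members of the list, Srgn and Lyz1, they lay above, as in 19.7% of all. None of the 3 passed the slide test given at the end, which rests on few arrays and cannot show that the slide left them unmoved. The granule membrane protein gene Cd63 was at 6.39, the proteoglycan gene Srgn at 5.87, the elastase inhibitor gene Serpinb1a at 5.08 and the cystatin gene Cst7 at 4.95. The list also held dim members, with Lyz1 at 2.92, the protease-activating cathepsin gene Ctsc at 2.32, Lyz2 at 0.45 and the serine protease gene Prss57 at -2.76, percentile 16.2. Lyz1 and Lyz2 are near-identical copies, so their split is uncertain.

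The promoters of 4 of these genes are shown because their probes were bright on all 4 arrays and because Elane and Prtn3 are neighbours on chromosome 10. The 250 bases upstream of the start site, from RefSeq on GRCm38.p6, are printed 5′ to 3′ in the direction of the gene. Capitals mark matches to GAGGAA (a purine-rich ETS core as bound by PU.1), TTGCNNCAA (a C/EBP palindrome), AACTG (a Myb core) and AGATAA (the core that erythroid zinc finger factors bind), searched on each strand, so that a reverse complement counts too.
Mpo: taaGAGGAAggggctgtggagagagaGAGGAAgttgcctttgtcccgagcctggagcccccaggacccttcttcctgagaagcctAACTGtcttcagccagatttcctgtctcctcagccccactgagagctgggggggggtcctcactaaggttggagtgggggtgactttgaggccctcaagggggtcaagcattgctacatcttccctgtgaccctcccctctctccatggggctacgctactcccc
Elane: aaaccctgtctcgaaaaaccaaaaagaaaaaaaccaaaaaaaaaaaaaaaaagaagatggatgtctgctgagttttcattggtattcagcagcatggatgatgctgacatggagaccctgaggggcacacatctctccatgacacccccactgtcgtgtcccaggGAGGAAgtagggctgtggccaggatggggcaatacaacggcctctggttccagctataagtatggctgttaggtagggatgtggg
Prtn3: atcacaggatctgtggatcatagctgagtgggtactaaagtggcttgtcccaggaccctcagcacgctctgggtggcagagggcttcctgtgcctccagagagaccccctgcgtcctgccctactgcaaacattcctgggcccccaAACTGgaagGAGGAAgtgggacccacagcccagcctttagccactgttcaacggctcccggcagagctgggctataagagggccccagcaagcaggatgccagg
Ctsg: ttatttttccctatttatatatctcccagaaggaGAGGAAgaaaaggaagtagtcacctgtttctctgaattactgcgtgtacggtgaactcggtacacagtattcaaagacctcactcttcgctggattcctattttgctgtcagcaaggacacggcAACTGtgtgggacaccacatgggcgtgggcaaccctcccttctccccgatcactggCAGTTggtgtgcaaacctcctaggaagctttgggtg
They lie at chr11:87793534-87793783, chr10:79886062-79886311 and chr10:79879417-79879666, all on the plus strand, and at chr14:56102575-56102824 on the minus strand. GAGGAA was found 2 times in the Mpo promoter and 1 time in each of the other 3. A match was present in 6 of the 10 primary granule genes that have an entry in the promoter table, and in 23.3% of all 32851 promoters of this length. Over the lists the share ran from 0% of the reference genes to 71.4% of the lymphoid genes (5 of 7), with 55.6% of the monocyte, macrophage and dendritic cell genes. The match was therefore not particular to the primary granule genes, and the lists are short. AACTG was present in Mpo, Prtn3 and Ctsg but also in 39.1% of all promoters. TTGCNNCAA and AGATAA were found in none of the 4, and in 1.74% and 9.99% of all promoters. Such matches describe letters in a window and do not show binding.

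Secondary and tertiary granules form at the myelocyte stage and after. Of 14 genes of these later neutrophil stages 8 were detected (57.1%, against 60.2% of all gene names and 66.4% of protein-coding names). The detected ones were mostly dim, at a median percentile of 28.2. Haptoglobin, Hp, stood apart at 3.50, 3.74, 4.42 and 4.4 (4.02 ± 0.47, SD, n = 4), percentile 85.6. Lipocalin 2, Lcn2, was at -0.87, the cathelicidin gene Camp at -2.44, the oxidase subunit gene Cybb at -2.17, the chitinase-like gene Chi3l3 at -2.55 and the collagenase gene Mmp8 at -2.27. Gelatinase B (Mmp9), Cd177, Ly6g and Retnlg were well above background on no array, Ngp on 1 and lactoferrin (Ltf) on 2. The calprotectin subunits varied, with S100a8 at -0.98, -0.29, -2.42 and -1.87 and S100a9 at -0.29, 0.85, -1.82 and -1.03. Of the 8 detected members, 4 had both arrays of slide 1 above both of slide 2 (S100a8, S100a9, Mmp8 and Camp) and 2 had them below (Hp and Lcn2), where 19.7% and 31.7% of all detected gene names did so. None of these 6 genes passed the slide test, which with few arrays cannot show that they do not differ.

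**Figure D2:**
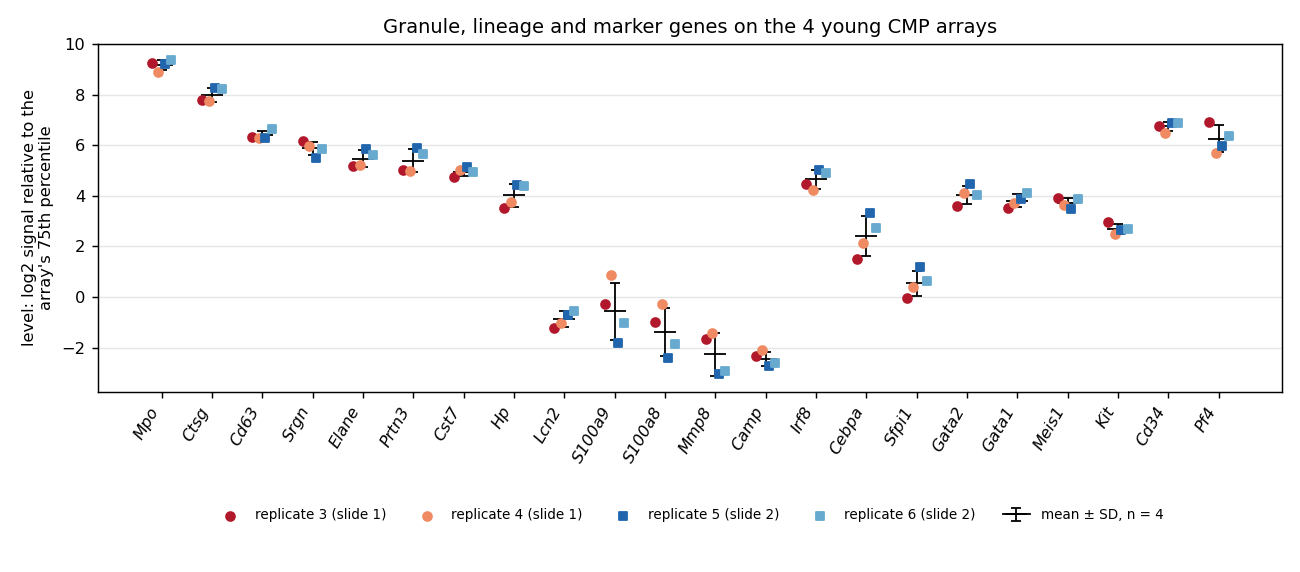
Levels (y axis, log2 units above the 75th percentile of the array) of 22 granule, lineage and marker genes (x axis) on each of the 4 young arrays, with circles for slide 1, squares for slide 2 and black bars for the mean ± SD (n = 4). Mpo sits between 8.89 and 9.35 on all 4 arrays, whereas S100a9 runs from -1.82 to 0.85.

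Transcription factors of stem and progenitor cells were detected nearly throughout. Of 22, 21 were detected (95.5%, against 66.4% of protein-coding names), with a median percentile of 79.5. Mecom, a stem cell regulator, was well above background on 1 array. Lyl1, a basic helix-loop-helix factor, was at 5.98 ± 0.09, Myb at 5.69 ± 0.29, the core-binding factor subunit gene Cbfb at 5.39 ± 0.27, Lmo2 at 4.91 ± 0.30 and Myc at 4.38 ± 0.33 (SD, n = 4). Meis1, a partner of Hox proteins and a marker of early progenitors, was at 3.92, 3.62, 3.47 and 3.87 (3.72 ± 0.21, SD, n = 4), at percentile 83.5. Its 4 arrays lay within 0.45 of each other. Tal1 was at 3.67 and Runx1 at 3.05, the latter with its 2 probes 3.05 and 2.86 close together. Factors tied to the stem cell were among the dimmer members, with Hoxb4 at 0.68, Erg at 0.48, Hlf at -0.20, Hoxa9 at -0.86 and Hoxa10 at -3.19.

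Detection of the Hox genes, which set identity along the body axis and in blood act mainly in early cells, followed the cluster. In the Hoxa cluster 8 of 11 genes were detected (72.7%, near the 66.4% of protein-coding names). In Hoxb 4 of 10 were detected, in Hoxc 1 of 9 and in Hoxd 0 of 9, each below the share of protein-coding names. Hoxa7 was the brightest at 3.56 ± 0.24 (SD, n = 4), and no other Hox gene was above the median of all detected gene names except Hoxb4. Of the Hoxd genes, 7 were well above background on no array and Hoxd9 and Hoxd10 on 1 array each.

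The factors of the opposing myeloid branches were present together. All 10 megakaryocyte and erythroid factors were detected (100%, against 66.4% of protein-coding names), at a median percentile of 74.1. Nfe2, which drives platelet release, was at 5.31, 5.51, 5.68 and 5.79 (5.57 ± 0.21, SD, n = 4), the Nfe2 partner gene Mafg at 5.33, the Gata1 cofactor gene Zfpm1 at 4.86 and the repressor gene Gfi1b at 4.34. Gata1, the master factor of this branch, was at 3.51, 3.72, 3.86 and 4.13 (3.81 ± 0.26) and Gata2, which precedes it, at 3.59, 4.10, 4.45 and 4.03 (4.04 ± 0.35). Klf1, which switches on the globin genes, was at 0.10 ± 0.17 (SD, n = 4), percentile 48.9. Bach1, Zbtb7a, Klf3 and Mafk lay between 1.17 and 1.56.

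Of 16 granulocyte and monocyte factors, 14 were detected (87.5%, against 66.4% of protein-coding names), at a median percentile of 69.0. Irf8, which favours monocytes and dendritic cells over granulocytes, was at 4.45, 4.25, 5.03 and 4.90 (4.66 ± 0.37, SD, n = 4). Cebpb was at 3.74 ± 0.04, Cebpd at 3.47, Rara at 3.07 and Egr1 at 2.90. Cebpa, which is needed for the step out of the CMP stage towards granulocytes, was at 1.49, 2.15, 3.32 and 2.74 (2.42 ± 0.79, SD, n = 4). The range of 1.83 between replicates 3 and 5 was the largest in this list. Sfpi1, the gene of PU.1, followed the same order of arrays at -0.03, 0.39, 1.17 and 0.64, and it was at percentile 53.6 by its only probe. Gfi1, which represses monocyte genes, was at 2.23 ± 0.05, and Cebpe, of the secondary granule stage, at -0.01. Maf, of macrophages, was well above background on no array.

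Lymphoid and non-blood factors had the lowest shares of detected members among the 5 lists of transcription factors. Of 19 lymphoid factors 10 were detected (52.6%, against 66.4% of protein-coding names), at a median percentile of 38.1. Pax5, Ebf1 and Pou2af1 of B cells and Bcl11b of T cells were well above background on no array. The detected ones were led by factors with roles beyond lymphocytes, Bcl11a at 2.60, Tcf3 at 2.38 and Ikzf1 at 1.02. Foxo1 was at 0.15, Tox at -0.79 and Id3 at -1.02. Gata3 was at -1.92 and Foxp3 at -1.68. Of 20 factors of other tissues, 5 were detected and 9 were well above background on no array, among them Sox2, Pax6, Isl1, Myog, Cdx2, Tbx5 and Tbx20. The detected ones, each by a lone probe, were Nanog at 0.53, Hnf4a at -1.41, Sox10 at -1.66, Gata4 at -4.01 and Nkx2-5 at -4.04. Gata4 and Nkx2-5 were the dimmest detected members of all lists, just inside the detection mark, and Gli3 and Eomes, at -3.82 and -3.80, were just outside it with 3 arrays well above background.

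**Figure D3:**
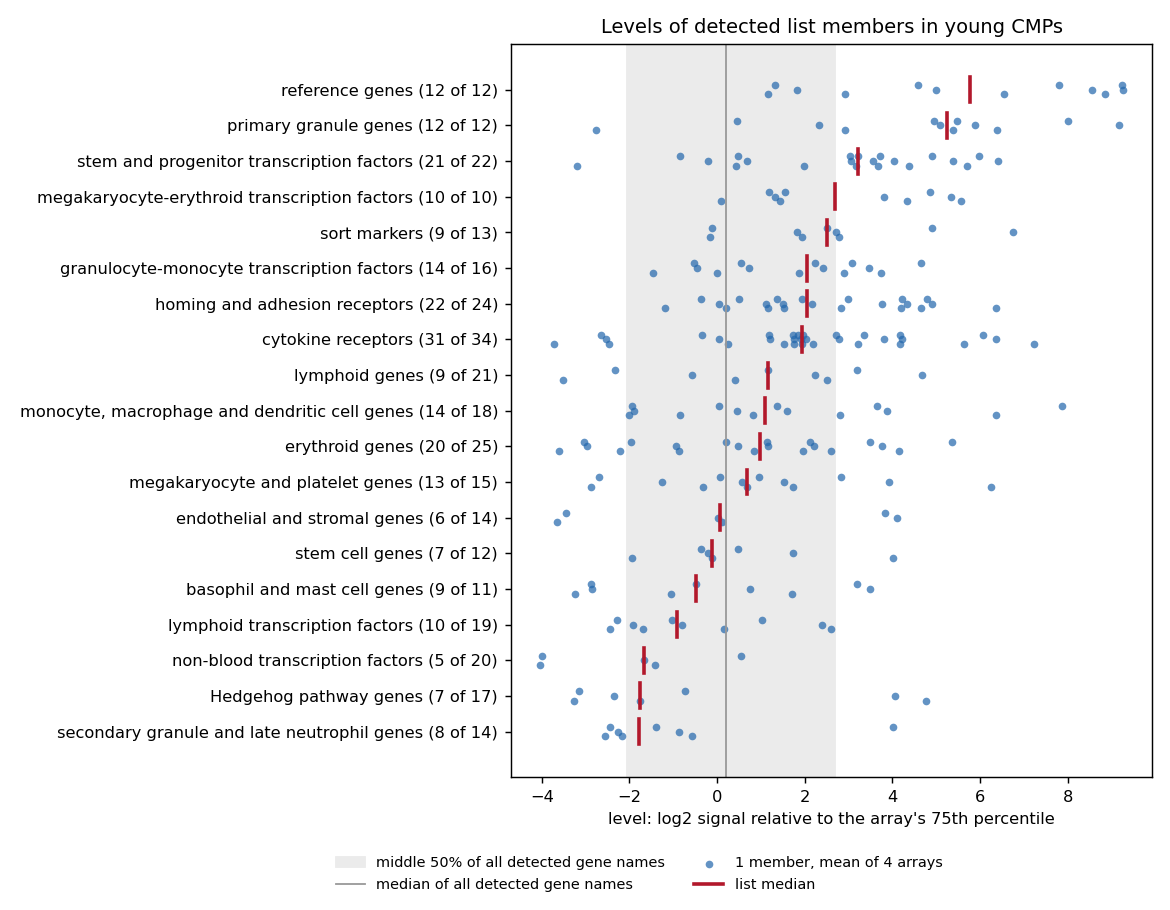
Mean level over the 4 young arrays (x axis, log2 units above the 75th percentile of the array) of each detected member of the lists with at least 5 detected members (y axis, with the number detected of the number on the array), with red bars for the list medians and a grey band for the middle 50% of all detected gene names. The medians run from -1.78 for the secondary granule list to 5.24 for the primary granule list and 5.78 for the reference genes.

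The cytokine receptors were read next, since they set which growth factors a CMP can receive. Of 34, 31 were detected (91.2%, against 66.4% of protein-coding names), at a median percentile of 67.8. The granulocyte colony-stimulating factor receptor, Csf3r, was the brightest at 7.45, 6.90, 7.60 and 7.0 (7.24 ± 0.34, SD, n = 4). The macrophage colony-stimulating factor receptor, Csf1r, was at 6.01, 6.41, 6.47 and 6.52 (6.35 ± 0.23) by its 3′ probe, with its other 2 probes at 2.05 and 1.04. The shared beta chains Csf2rb and Csf2rb2 were at 6.06 and 5.63, but these are close copies and their split is uncertain. The alpha chains for granulocyte-macrophage colony-stimulating factor and interleukin 3, Csf2ra and Il3ra, were at 4.18 ± 0.59 and 3.81 ± 0.36 (SD, n = 4). The receptor for erythropoietin, Epor, was at 1.96 ± 0.14. Tnfrsf1a was at 4.21, Il11ra1 at 4.16 and Il6ra at 3.36. Il2ra was the most uneven receptor at 3.07, 2.04, 0.84 and 1.41, with replicate 3 the highest. Il2rb was well above background on no array, Il7r on 1 and Il18r1 on 2, and these receptor chains used by lymphocytes were the 3 undetected members. The interleukin 5 receptor of eosinophils, Il5ra, was detected at -3.71, percentile 4.0.

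Among 24 homing and adhesion receptors 22 were detected (91.7%, against 66.4% of protein-coding names), at a median percentile of 69.0. Cd47, the signal that protects cells from phagocytosis, was at 6.36 ± 0.13 by 2 probes 6.36 and 6.28, Cd48 at 4.78 ± 0.07, the selectin ligand gene Selplg at 4.65 ± 0.15 and Cd44 at 3.76 ± 0.07 (SD, n = 4). The integrin chain gene Itgb3 was at 4.32 ± 0.26. The marrow retention receptor Cxcr4 was at 1.5 and the monocyte receptors Cx3cr1 and Ccr2 at 3.00 and 1.37. Of 18 chemokine receptor names 12 were detected (66.7%, near the 66.4% of protein-coding names), and these 3 were the brightest. Ccr1 was well above background on no array and Slamf1, which encodes the stem cell marker CD150, on 3. Of the 12 Toll-like receptors 8 were detected (66.7%, near the 66.4% of protein-coding names). Tlr9 at 2.21, Tlr2 at 2.08 and Tlr7 at 1.19 were the brightest, and Tlr3 and Tlr11 were well above background on no array.

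The megakaryocyte and platelet list had 13 of 15 members detected (86.7%, against 66.4% of protein-coding names), at a median percentile of 55.2. Platelet factor 4, Pf4, a platelet granule chemokine, was at 6.93, 5.71, 5.98 and 6.38 (6.25 ± 0.53, SD, n = 4), percentile 94.8, with replicate 3 the highest and replicate 4 the lowest. Von Willebrand factor, Vwf, was at 4.16, 3.25, 4.01 and 4.23, and Itga2b, which encodes CD41, at 2.79, 2.14, 3.12 and 3.23. Replicate 4 was the lowest in 8 of the 13 members and the highest in none, against 28.3% and 18.3% of all detected gene names. The glycoproteins of the platelet surface were dimmer, with Gp9 at 1.53, Gp5 at 0.69, Gp1ba at 0.57 and Gp1bb at 0.07, and the late platelet chemokine gene Ppbp was at -2.89. The secretion gene Rab27b was at 2.02, 1.01, 0.28 and 0.52. Thbs1 and Gp6 were well above background on 3 and 2 arrays.

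Erythroid genes were the list in which the 4 arrays differed most. Of 25, 20 were detected (80.0%, against 66.4% of protein-coding names). The median over these 20 was 2.04, 0.73, 0.39 and 0.35 on replicates 3 to 6. Replicate 3 was the highest array in 12 of the 20, against 5426 of the 20954 detected gene names, and 6 of the 20 ranged over more than 2, against 2.26% of all detected gene names. The alpha globin gene Hba-a2 was at 4.28, 1.08, -0.54 and -0.24 and its near-identical copy Hba-a1 at 2.21, -1.11, -2.46 and -2.38. The beta globin genes Hbb-b1 and Hbb-b2 were at 5.49, 3.98, 3.37 and 3.72 and at 1.82, -0.07, -0.56 and -0.41. Replicate 3 was the highest in each of these 4 genes, whose probes may also bind the RNA of the other copy. Ahsp, which chaperones alpha globin, had the largest range of any detected gene name, 6.03, at 2.23, 0.18, -3.80 and -2.07. Kel, of the erythrocyte surface, was at -0.69, -2.20, -2.86 and -3.16.

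Among the other 14 detected erythroid genes, replicate 3 was the highest array in 6, replicate 5 in 5 and replicate 6 in 3, and none ranged over more than 2. The carbonic anhydrase gene Car1 was at 1.81, 0.84, 0.11 and 0.58, and the biliverdin reductase gene Blvrb at 3.07, 1.75, 1.75 and 2.26, both highest on replicate 3. Hemgn was at 5.23, 5.25, 5.86 and 5.13, a further carbonic anhydrase gene, Car2, at 3.66, 3.04, 3.60 and 3.69, the haem enzyme genes Fech and Cpox at 2.61 ± 0.22 and 2.12 ± 0.17 (SD, n = 4) and Epor at 1.96 ± 0.14. The water channel gene Aqp1 was at 3.77 ± 0.42 (SD, n = 4), highest on replicate 6. Alas2, the erythroid enzyme that starts haem synthesis, was at -3.25, -3.88, -3.74 and -3.59 and the band 3 anion exchanger gene Slc4a1 at a mean of -2.96. Epb4.2 was well above background on no array, Ank1 on 2 and Rhd and Rhag on 3. The part of mature red cell RNA in the high globin values of replicate 3 was not tested.

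Replicate 3 was also the highest array for other names chosen for their large range. The chemokine gene Ccl4 was at 5.0, 1.31, 0.48 and 1.47 and Ccl3 at 4.49, 1.08, 0.19 and 0.78. The cytokine gene Il9 was at 1.52, -3.12, -1.50 and -1.20. Clec2d, a lectin-like ligand of natural killer receptors, was at 1.66, 0.02, -3.51 and -2.10. In each of these 4 genes replicate 3 lay above all other arrays. Other highly variable names followed other arrays, with Abca4, a retinal transporter, at 0.58 on replicate 5 and between -4.64 and -3.71 elsewhere, ENSMUST00000127337 and ENSMUST00000099046 highest on replicate 5 and 1700048F04Rik and an unannotated transcript of chromosome 17 highest on replicate 3. Across all detected gene names, 4941 (23.6%) ranged over more than 1 and 473 (2.26%) over more than 2. Of the 4941, the array farthest from the median was replicate 3 for 1910, replicate 5 for 1819, replicate 4 for 812 and replicate 6 for 400.

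**Figure D4:**
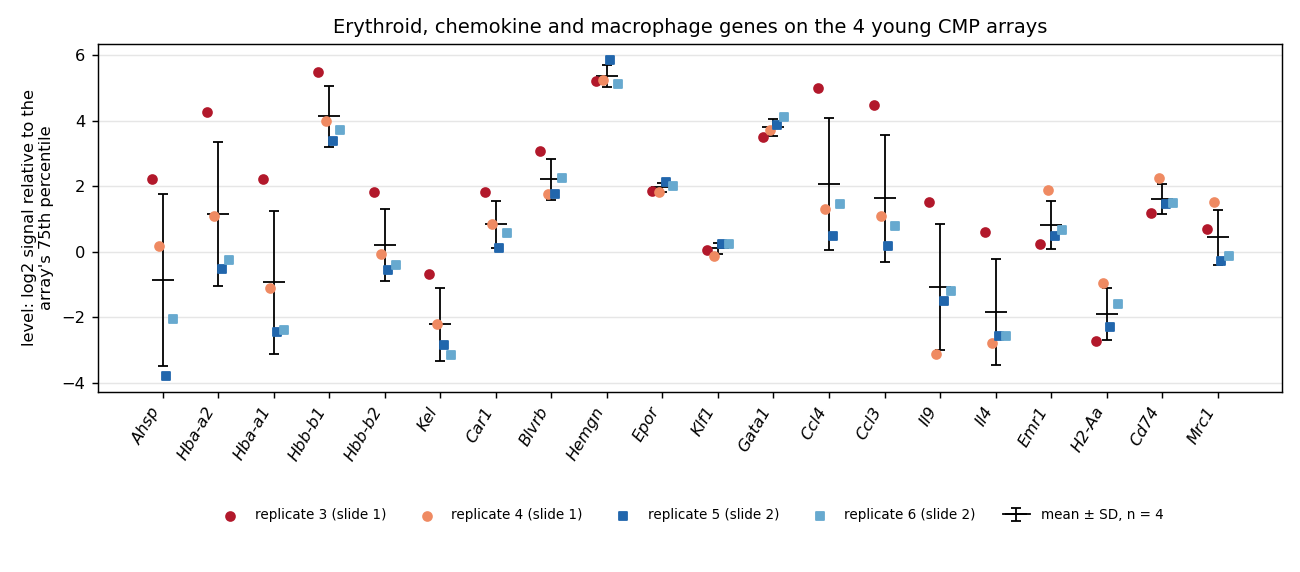
Levels (y axis, log2 units above the 75th percentile of the array) of 20 erythroid, factor, chemokine and macrophage genes (x axis) on each of the 4 young arrays, with circles for slide 1, squares for slide 2 and black bars for the mean ± SD (n = 4). Replicate 3 is the highest array for all 4 globin genes, Ahsp, Ccl3 and Ccl4, while Epor, Klf1 and Gata1 keep the 4 arrays together and replicate 4 is the highest for Emr1, H2-Aa, Cd74 and Mrc1.

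Of the 18 monocyte, macrophage and dendritic cell genes on the array 14 were detected (77.8%, against 66.4% of protein-coding names). The median over these 14 was 0.70, 1.85, 0.92 and 1.08 on replicates 3 to 6. Replicate 4 was the highest array in 9 of the 14, against 18.3% of all detected gene names. Emr1, which encodes F4/80, was at 0.23, 1.88, 0.47 and 0.68, the class II gene H2-Aa at -2.74, -0.94, -2.31 and -1.60 and the invariant chain gene Cd74 at 1.19, 2.26, 1.45 and 1.49. F13a1, the factor XIII chain of monocytes and megakaryocytes, was at 3.64 ± 0.12 (SD, n = 4), the class II gene H2-Ab1 at 3.87 and the lysosomal gene Cd68 at 2.81. Siglech, a receptor of plasmacytoid dendritic cells, was at 8.05, 7.42, 8.23 and 7.77 by its 3′ probe, but another probe was at -3.51 and the last well above background on no array. The macrophage genes were uneven. The mannose receptor gene Mrc1 was at 0.69, 1.52, -0.29 and -0.14, Marco at -2.02 and C1qb at -1.93, with Siglec1 well above background on 3 arrays and C1qa, Cd5l and Vcam1 on none. Ly6c2 has no probe on this array by that name.

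Basophil and mast cell genes had 9 of 11 members detected (81.8%, against 66.4% of protein-coding names), at a median percentile of 42.7. The histamine enzyme gene Hdc was at 3.48 ± 0.40, granzyme B, Gzmb, at 3.18 ± 0.28, the carboxypeptidase gene Cpa3 at 1.70 ± 0.35 and the basophil protease gene Mcpt8 at 0.75 ± 0.67 (SD, n = 4). Tpsab1 was well above background on no array, while its close copy Tpsb2 was at -0.49, and the high-affinity IgE receptor chain gene Ms4a2 was at -1.06. Eosinophil granule genes were nearly absent, with Epx at -2.13 as the only detected member of 5, Prg2 on 3 arrays, Ear2 on 2 and Prg3 and Ear1 on none.

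Lymphoid genes had 9 of 21 members detected (42.9%, against 66.4% of protein-coding names), and the detected ones were at a median percentile of 60.3. Nkg7, of cytotoxic granules, was at 4.67 ± 0.27, the B cell receptor chain Cd79b at 3.18 ± 0.26, Cd3e at 2.23 ± 0.20 and Lck at 1.17 ± 0.26 (SD, n = 4). Cd79a, the partner chain of Cd79b, was dim at -2.34, as was Zap70 at -3.51. Cd3d and Cd3g were well above background on 1 array each. The terminal transferase gene Dntt was at 0.98, -0.30, 0.36 and 0.59 and the surrogate light chain gene Vpreb1 at -0.57. Rag1, Ms4a1, Igll1 and Ncr1 were well above background on no array, and Rag2 on 1.

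Stem cell genes had 7 of 12 members detected (58.3%, against 60.2% of all gene names and 66.4% of protein-coding names). Their median percentile was 46.7. Without replicate 5, 11 of the 12 were detected. Pdzk1ip1 was the brightest at 4.01 ± 0.26, Ctnnal1 was at 0.48, and Procr, which encodes a receptor used to isolate stem cells, was at -0.36 ± 0.43 (SD, n = 4). Fgd5, Hoxb5, Slamf1 and Sult1a1 were well above background on 3 arrays and Mecom on 1. Endothelial and stromal genes had 6 of 14 members detected (42.9%, against 66.4% of protein-coding names). Cdh5, which defines endothelium, the adipocyte gene Adipoq and the matrix gene Lum were well above background on no array, and Col1a1 on 1. Pdgfrb was at 0.11, Col1a2 at 0.01, Emcn at -3.45 and Dcn at -3.66. Kdr and Lepr were detected at 4.10 and 3.82, each by a lone bright probe, with the other probe of Kdr at -2.72 and the other 3 of Lepr not detected.

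The Hedgehog pathway, which the study took up after comparing the ages, had 7 of 17 members detected in young CMPs. That is 41.2%, against 60.2% of all gene names and 66.4% of protein-coding names. Without replicate 5, 11 were detected. In this pathway a secreted ligand binds Patched, which releases Smoothened to act on the Gli factors. Of the ligands, Shh was well above background on no array, Dhh on 1 and Ihh on 3. The receptor gene Ptch1 was at -1.75 ± 0.37 (SD, n = 4). The coreceptor genes Gas1 and Cdon were detected at -0.73 and -3.14, and Boc on 3 arrays only. Smo was at 3.56, 4.23, 4.12 and 4.33 (4.06 ± 0.35, SD, n = 4), with its upstream probe at 2.01. Of the effectors and their regulators, Sufu was at -2.35 and Kif7 at -3.27, Gli3 was well above background on 3 arrays, and Gli1, Gli2, Hhip and Evc on none, with Evc2 on 3.

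Other families of tissue-restricted genes served as a check of what is absent. Of 1076 olfactory receptor names 137 were detected (12.7%) and 714 were well above background on no array. Of 251 vomeronasal receptor names 27 were detected (10.8%), of 42 beta-defensin names 4 (9.5%) and of 47 keratin names 17 (36.2%). The share over all protein-coding names was 66.4%. None of these detected members was among the brightest 10% of gene names. Of the sex-linked genes, Xist was detected at 0.98, 0.33, 0.03 and 0.16 on replicates 3 to 6, and the Y-linked genes Ddx3y, Uty, Eif2s3y and Kdm5d were well above background on none of the 4 arrays. The labels do not give the sex of the mice.

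**Figure D5:**
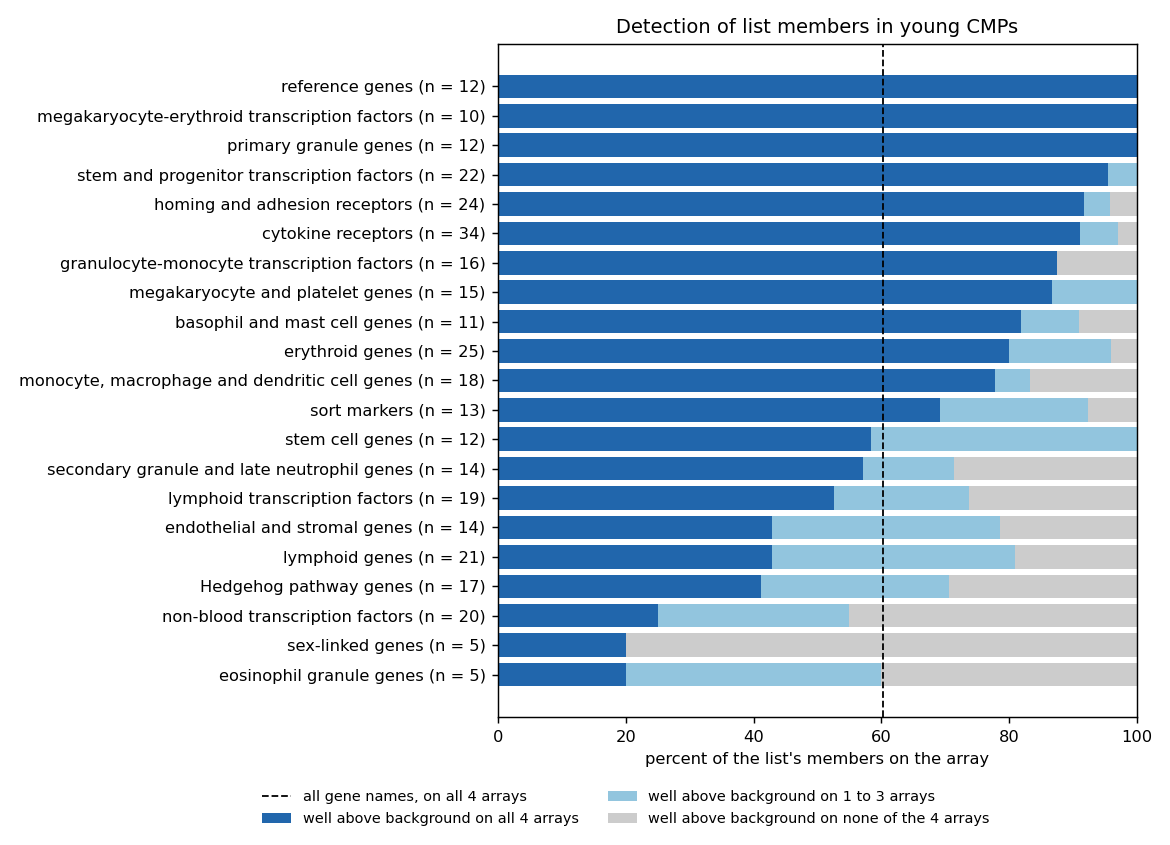
Percent of the members of each list on the array (x axis) whose signal cleared the background on every young array, on 1 to 3 or on none, by list (y axis, with the number on the array), with a dashed line at 60.2% for all gene names. Reference, primary granule and megakaryocyte-erythroid factor genes reach 100%, and eosinophil, sex-linked and non-blood factor genes lie lowest.

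Since the 4 arrays lie on 2 slides, the slides were compared with limma over the 29515 detected probes. At an adjusted p under 0.05 (limma, Benjamini-Hochberg) and a change of at least 1.5-fold, 5 gene names (0.0239%) were higher and 48 (0.229%) lower on slide 2 than on slide 1, and 5305 probes had an unadjusted p under 0.05. By the probes that stand for the list members, no member was called. With 2 arrays per slide, that does not show that the slide leaves them unmoved. Of all detected gene names, 51.4% had both arrays of a slide above both of the other. The array design also lists Xist as XIST with other probes, and 1 of these was called, at 2.95 on slide 1 and 0.98 on slide 2 (adjusted p = 0.0477 by limma). Gm4022 was the only called gene among the 257 list members and named genes, at -4.53 on slide 1 and -0.42 on slide 2 (log2 difference 4.11 ± 0.30, SE, adjusted p = 0.017 by limma). Ahsp differed by -4.14 ± 0.70 (SE) with an adjusted p of 0.068 by limma. The counts rested on the arrays and the settings, with no gene name called when replicate 3, 5 or 6 was left out and between 0 and 504 called in a direction under the other settings with an adjusted p. Slide and animal cannot be told apart here.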

How the data were processed

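RNA of young CMPs was measured on 4 arrays by the authors, who labelled 0.1 µg of total RNA per sample with the Low Input Quick Amp kit and read the 1-colour scans with Agilent Feature Extraction 10.7.3.1, per the labels. The deposited intensity of each spot is on a linear scale, background-subtracted and detrended by that software, and per the file headers probe coordinates are on mm9. Marks for spots well above background, saturated or outlying come with it. A series table of the authors' log2 values and the 4 arrays of old mice were not used here.

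From the deposited intensities, log2 values minus the log2 of each array's 75th percentile over 59305 non-control spots were computed. Outlying spots, 146 to 206 per array, were left out, and spots of a probe were averaged, giving 55681 probes. A probe was detected on an array if at least a share of 0.5 of its kept spots was well above background. Each gene name of the array design stood by its brightest probe among those detected on all 4 arrays, and an undetected name by its brightest probe. Percentiles are ranks among the 20954 detected gene names. Values are means ± SD over 4 arrays, so precision is limited by how few arrays there are and by how far a signal lies above background. Symbols were matched to RefSeq names for biotype and promoters.

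The text names Kit, Cd34, Mpo, Meis1 and Pf4, the 20 brightest gene names, in each of 21 lists up to 6 of the brightest detected members and those detected on no array, all sort, reference and sex-linked genes and the 12 detected names with the largest range. Some genes that this rule names are not reported here. Further members and families were named with their values known, and the members and lists were chosen with earlier results of these data known. Slides were compared with limma 3.58.1 (lmFit and eBayes) in R 4.3.3, which was tested on simulated data. Where nothing says that arrays came from separate animals, its p-values measure only the spread between these samples. The other steps used Python with pandas and numpy. Alternatives were other detection marks, the mean of a gene's detected probes, normexp with offset 50, quantile normalization, the median as shift, outlying spots kept and leaving out each array.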

Additional observations from a re-analysis of the deposited data

Results flagged for a closer look

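Each named gene and list median was examined for a lone array far from the other 3, by the gap to the nearest array as a share of the whole range over the 4 arrays (Dixon's test at the 95% level). Of 171 values, 14 exceeded the threshold, and chance alone gives about 1 in 20. Replicate 4 was the lowest array for Nkg7 (0.896), Ptprc (0.902), Car2 (0.858), Rps14 (0.846) and Elk1 (0.838). Replicate 3 was the lowest for Cdon (0.904) and Gusb (0.878) and the highest for 1700048F04Rik (0.888) and Rpl35 (0.888). Replicate 5 was the highest for ENSMUST00000127337 (0.898) and Hemgn (0.83) and the lowest for Hprt (0.846). Replicate 6 was the highest for Bcl11a (0.861) and Cd63 (0.85). No list median exceeded the threshold. The lone array differed from the nearest most for 1700048F04Rik, at -0.03 on replicate 3 and at most -3.99 elsewhere, and for ENSMUST00000127337, at 0.56 on replicate 5 and at most -3.89 elsewhere. Both are among the names chosen for their large range.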

How the results depend on the processing

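No paired analysis was possible because only the arrays of a single age group were used and no groups with shared replicate numbers were compared. The count of 20954 detected gene names ran from 20956 with outlying spots kept to 25860 when any array sufficed, and was 25792 with the weaker detection mark. When any array sufficed, the detected members were 11 non-blood factors, 3 eosinophil, 17 lymphoid, 12 stem cell, 11 endothelial and stromal and 12 Hedgehog genes. With the weaker mark they were 17 lymphoid and 10 non-blood factors and 2 eosinophil, 12 stem cell, 12 endothelial and stromal and 11 Hedgehog genes. Leaving out each array in turn gave 1 to 2 eosinophil, 7 to 11 stem cell and 7 to 11 Hedgehog genes, the highest count without replicate 5 in each case. Of the counts by list, 132 of 147 stayed within 1.5 times of the main count.

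With the mean of a gene's detected probes in place of the brightest, the median percentile became 82.2 for stem and progenitor factors, 78.2 for megakaryocyte-erythroid factors, 57.0 for sort markers, 72.2 for cytokine receptors, 66.5 for homing receptors, 93.3 for primary granule genes, 40.6 for basophil and mast cell genes, 57.7 for lymphoid genes, 50.5 for stem cell genes, 53.8 for endothelial and stromal genes and 94.3 for reference genes. Normexp gave 75.1 for the megakaryocyte-erythroid factors. Leaving out each array gave 73.8 to 74.5 for these and 67.5 to 69.8 for the granulocyte-monocyte factors. The level of 45 of 152 named genes moved by more than its SD with the mean of the probes and of 35 with normexp, and the median as shift raised all levels by about 3.45.

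The slide comparison gave 5 gene names higher and 48 lower on slide 2. These became 221 and 504 with normexp, 64 and 355 with the median as shift, 105 and 320 with an intensity trend and 2515 and 2045 at an unadjusted p under 0.05, and 0 and 0 with quantile normalization or with no filter on dim probes. Leaving out each array gave 0 to 7 higher and 0 to 55 lower, with 0 in each direction without replicate 3, 5 or 6 and the lone array of a slide assumed to vary like the other slide. The cause was not tested. Signal near background limits the calls on dim genes, since replicate 5 had the fewest spots above it.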
